A study of Mus musculus with 47 samples.

Results

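Socs3, Bcl3, Stat3, Lifr, Il6st, Jak1 and Pim1 are genes of the LIF/Stat3 pathway, and they were followed across wild-type and Tcf/Lef knockout mouse embryonic stem (ES) cells in 8 media. Every probe that the array's gene table assigned to 1 of these 7 gene symbols was taken, which gave 12 of the 25697 probes and 7 of the 16593 genes on the array. Socs3, Bcl3, Il6st and Jak1 had 1 probe each. Stat3 and Lifr had 3 probes each and Pim1 had 2, and for these genes the probe with the highest mean signal is called the lead probe and stands for the gene unless another probe is named.

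LIF is the cytokine that keeps mouse ES cells self-renewing. It binds a receptor made of the LIF-specific chain Lifr and the shared chain gp130, which Il6st encodes, and the kinase Jak1 bound to these chains then phosphorylates Stat3. Phosphorylated Stat3 enters the nucleus and switches on targets, among them Socs3, an inhibitor that binds gp130 and the Jak kinases and damps the signal, the transcriptional coregulator Bcl3, and the serine/threonine kinase Pim1. In ES cells Stat3 acts beside the Wnt pathway, in which beta-catenin binds the Tcf/Lef factors Tcf7, Tcf7l1, Tcf7l2 and Lef1 on DNA. Inhibition of Gsk3 stabilises beta-catenin.

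Total RNA of 47 samples was hybridised to Illumina arrays of 1 colour. The wild-type line (WT), a Tcf7l1-/- line (KO), a Tcf7-/- Tcf7l2-/- Lef1-/- line (3XKO) and a line with all 4 genes deleted (4XKO) were each grown in 3 media, all based on N2B27. ESC medium held 1 uM of the MEK inhibitor PD0325901, 3 uM of the Gsk3 inhibitor CHIR99021 and 1000 U/mL LIF. EpiLC medium, for epiblast-like cells, held 12 ng/mL Fgf2 and none of these 3. In EpiLC+CH, cells spent 3 days in Fgf2 and 3 uM CHIR99021 was then added for 24 hours. WT cells were also kept in Fgf2 together with 3 uM CHIR99021 (ContinuedCH). These 13 groups of 3 arrays make up the first set of 39 arrays. A second set of 8 WT arrays held LIF with PD0325901 (LIF+PD, 3 arrays), LIF with PD0325901 followed by CHIR99021 (LIF+PD+24hrCH, 3 arrays), LIF with CHIR99021 (LIF+CHIR, 1 array) and PD0325901 with CHIR99021 without LIF (PD+CHIR, 1 array), at the same doses. For LIF+PD+24hrCH the group's name gives 24 hours of CHIR99021, while the growth protocol gives LIF and PD0325901 for 24 hours and CHIR99021 for the next 48 hours, so the duration is not settled, nor whether LIF stayed in the medium. The labels name 1 line per genotype and call the replicates biological triplicates, so p-values against WT rest on the variation among cultures of single lines, and an effect of the deleted gene cannot be told apart from other differences between lines. LIF, PD0325901, CHIR99021 and Fgf2 all change between ESC and EpiLC medium, and their parts in a difference between these media cannot be told apart.

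Levels are given as the deposited intensity, as mean ± SD of 3 arrays, and differences as log2 ± SE from the fit over all probes of a set. A probe was called when its adjusted p in that fit was under 0.05. The 2 sets were normalized separately, so no level is compared between them. An intensity up to 13.6 in the first set or 14.3 in the second could not be told from background, and between 42.7% and 44.6% of the probes of an array lay above that limit. Replicate arrays of a group correlated at 0.960 to 0.985 over all probes. All 5 general pluripotency markers were above the limit in every group. The 6 naive markers summed to between 21612 and 23424 in WT ESC and to between 2026.5 and 2174.9 in WT EpiLC, but to between 13492 and 14005 in KO EpiLC. The 6 formative markers ran the other way, with sums of 1487 to 1628 in WT ESC, 19287 to 21426 in WT EpiLC and 3446 to 3602 in KO EpiLC. The 7 fibroblast markers summed to between 15.9 and 27 in WT ESC and to between 231 and 247 in WT EpiLC, of which Thy1 at 141 and Dcn at 87.9 made up most, while the fibroblast collagen Col1a1 was at background in both. The 6 trophoblast markers summed to between 2021 and 2453 in WT ESC, 564 and 634 in WT EpiLC, 1346 and 1369 in KO EpiLC and 1811 and 2074 in 3XKO EpiLC. Of these 6, 3 were above the limit on any array in WT ESC, WT EpiLC and KO EpiLC, and 4 in 3XKO EpiLC. In 4XKO EpiLC+CH only 1 was, at sums of 1368 to 1732, so such a sum can rest on 1 gene. The 7 extraembryonic endoderm markers summed to between 23.8 and 37.4 in WT EpiLC and 151.7 and 210.8 in 3XKO EpiLC. In ESC medium they summed to 45.2 to 68.4 in WT, 139.4 to 182.5 in KO, 120.5 to 132.8 in 3XKO and 80.8 to 100.9 in 4XKO. The part of these shifts in the results was not tested. In bulk samples such as these, fewer cells of a type and less RNA per cell cannot be told apart.

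The promoters of Socs3, Bcl3 and Stat3, the 3 genes that stood higher in ESC medium than in all media of the first set without LIF, are shown with that of the receptor gene Il6st, which overlapped between these media. Each is the RefSeq window of 300 bases on GRCm38.p6, from 250 bases before the transcription start to 50 after it, and capitals mark matches, on either strand, to the Stat palindrome TTCNNNGAA or to the Tcf/Lef core in its forms CTTTGA and CTTTGT, whose reverse complements are TCAAAG and ACAAAG.
Socs3 promoter, chr11:117969317-117969616, minus strand: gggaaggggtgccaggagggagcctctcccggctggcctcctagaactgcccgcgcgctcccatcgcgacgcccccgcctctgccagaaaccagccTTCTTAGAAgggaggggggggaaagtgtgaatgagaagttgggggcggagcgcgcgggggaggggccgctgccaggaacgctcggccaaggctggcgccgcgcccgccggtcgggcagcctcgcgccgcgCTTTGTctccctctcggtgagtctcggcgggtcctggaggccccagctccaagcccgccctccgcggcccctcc
Bcl3 promoter, chr7:19822706-19823005, minus strand: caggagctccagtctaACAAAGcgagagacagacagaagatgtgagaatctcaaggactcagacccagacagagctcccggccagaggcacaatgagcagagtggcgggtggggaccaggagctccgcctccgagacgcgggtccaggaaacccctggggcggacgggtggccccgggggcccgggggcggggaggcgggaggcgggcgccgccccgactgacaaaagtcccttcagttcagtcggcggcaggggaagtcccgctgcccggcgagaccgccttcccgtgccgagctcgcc
Stat3 promoter, chr11:100939491-100939790, minus strand: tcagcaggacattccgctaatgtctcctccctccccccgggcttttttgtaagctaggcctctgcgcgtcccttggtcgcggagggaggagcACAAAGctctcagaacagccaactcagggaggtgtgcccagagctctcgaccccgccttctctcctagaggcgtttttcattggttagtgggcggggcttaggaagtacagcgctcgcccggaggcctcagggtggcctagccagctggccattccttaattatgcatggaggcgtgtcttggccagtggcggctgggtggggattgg
Il6st promoter, chr13:112463820-112464119, plus strand: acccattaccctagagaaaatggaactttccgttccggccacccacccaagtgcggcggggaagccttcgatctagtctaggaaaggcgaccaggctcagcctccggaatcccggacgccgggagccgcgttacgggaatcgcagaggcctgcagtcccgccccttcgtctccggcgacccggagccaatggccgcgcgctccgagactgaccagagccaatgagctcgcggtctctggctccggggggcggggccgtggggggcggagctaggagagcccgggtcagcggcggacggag
The Socs3 window held TTCTTAGAA 154 bases before the start and CTTTGT 24 bases before it. The Bcl3 window held ACAAAG 234 bases before the start, and the Stat3 window held ACAAAG 158 bases before it. The windows of Il6st, Lifr, Jak1 and Pim1 held no match. Of 32851 RefSeq promoter windows of this length, 8.3% held TTCNNNGAA, 16.0% held CTTTGA and 18.7% held CTTTGT, so that a match is common and describes letters, not binding.

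The 7 genes differed in how far their signal rose above background. The lead Stat3 probe, Il6st and the lead Lifr probe were above the background limit on all 47 arrays, and Socs3 on 46. Bcl3 was above the limit on 27 arrays. Jak1 was above it on 12 arrays only, within a range of -2.5 to 22.0 over all arrays, and the lead Pim1 probe was above it on 36 arrays within a range of 5.0 to 34.1. The second Pim1 probe was above it on 5 arrays, and the Lifr probes ILMN_1242960 and ILMN_2829015 on 25 and 17. Neither Jak1 nor Pim1 was called in any of the 27 comparisons fitted, and their signals are too close to background for that to show that they were equal.

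**Figure D1:**
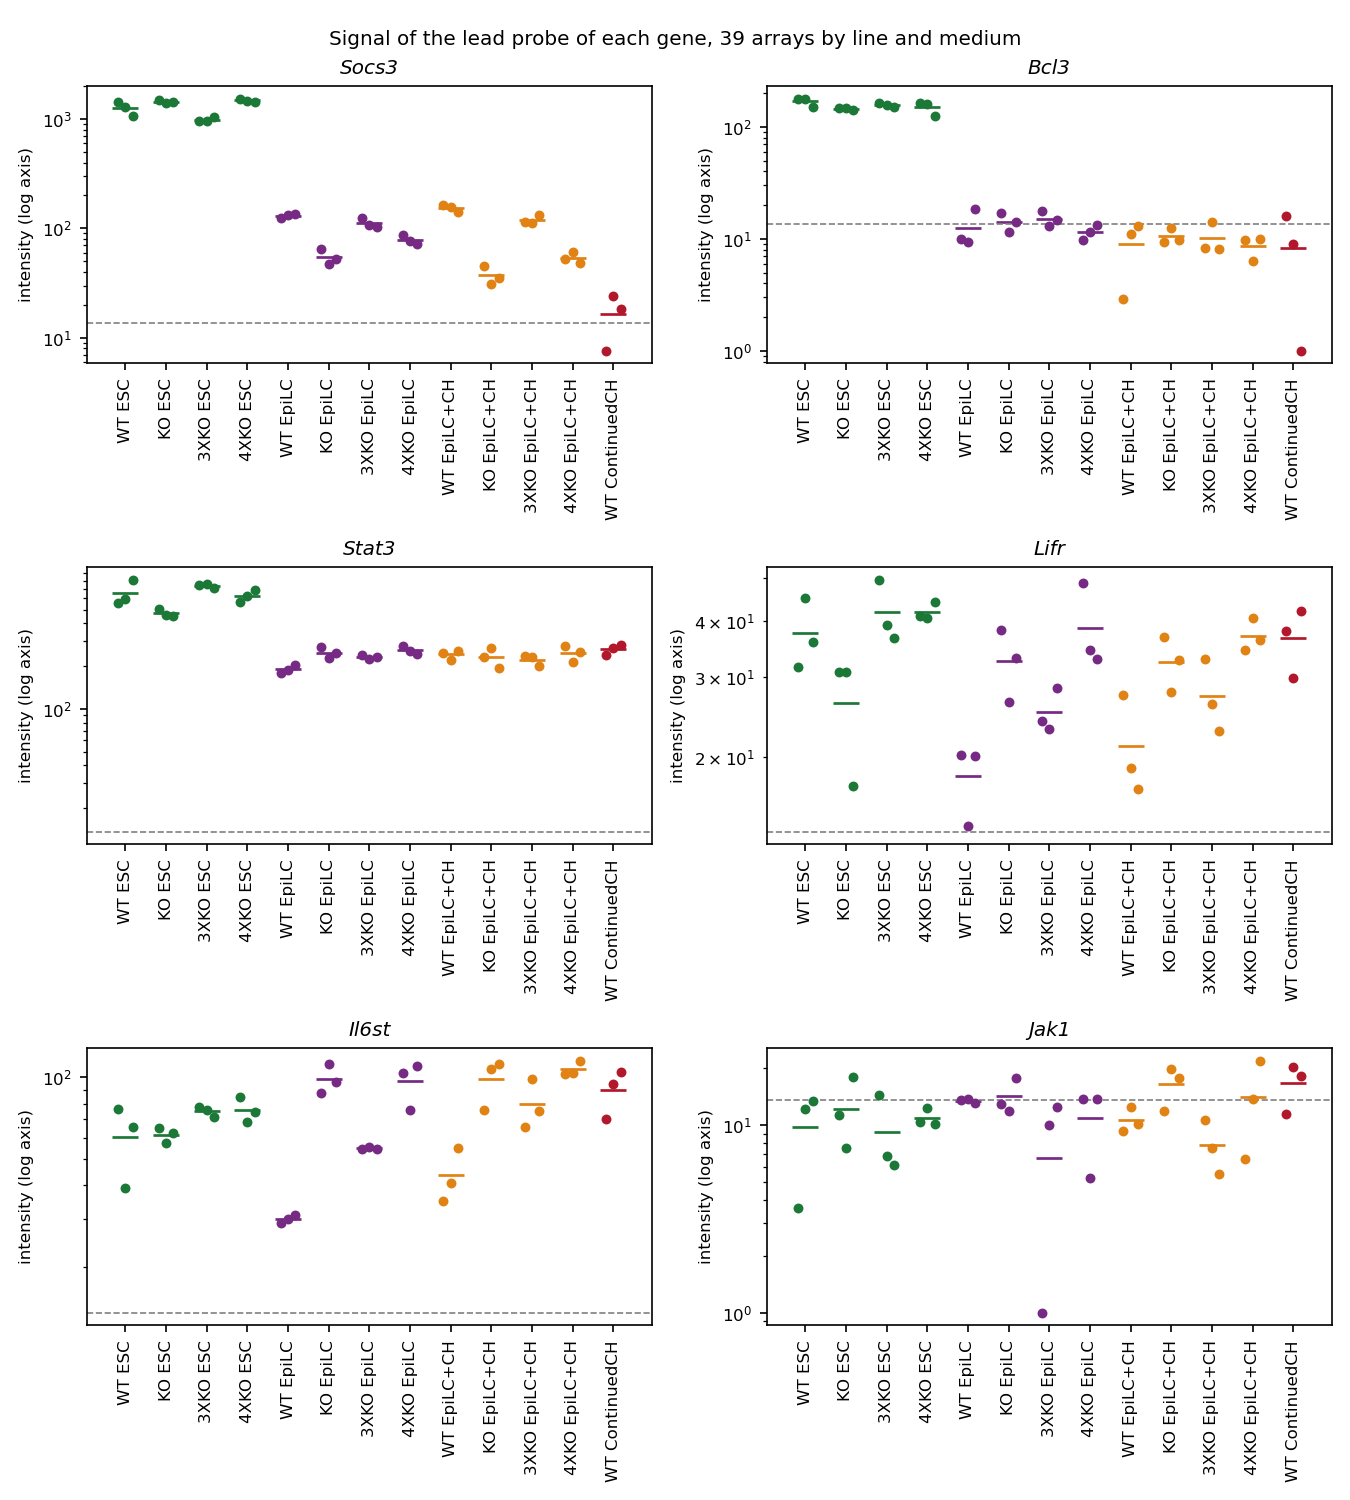
Deposited intensity (log axis) of the lead probe of 6 genes on the 39 arrays of the first set. Each point is 1 array, values under 1 are drawn at 1, short lines are means of 3 arrays and the dashed line is the background limit of 13.6. Socs3, Bcl3 and Stat3 are higher on all 12 ESC arrays than on all 27 arrays without LIF, whereas Il6st is lowest in WT EpiLC.

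Socs3, Bcl3 and Stat3 separated ESC medium from every medium of the first set without LIF. All 12 ESC arrays, of whatever line, lay above all 27 arrays of EpiLC, EpiLC+CH and ContinuedCH for 5 of the 12 probes, namely Socs3, Bcl3 and the 3 Stat3 probes, and 2.17% of all probes separated the media in this way. For Socs3 the lowest ESC array read 956.3 and the highest array without LIF read 162.6. For Bcl3 these values were 125.2 and 18.3, and for the lead Stat3 probe they were 453.1 and 279.6. The groups overlapped for Lifr, Il6st, Jak1 and Pim1.

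Socs3, the feedback inhibitor, fell between ESC and EpiLC in all 4 lines. On the 3 WT ESC arrays it read 1426.5, 1281.5 and 1066.3, and on the 3 WT EpiLC arrays it read 123.9, 131.5 and 135.1. Every EpiLC array was thus far below every ESC array. Socs3 fell by 3.26 ± 0.23 on the log2 scale in WT (adjusted p = 1.33e-12), a 9.67-fold difference in mean intensity. In KO it went from 1439.5 ± 58.9 to 54.9 ± 8.75 and fell by 4.72 on the log2 scale (adjusted p = 1.58e-15), or 26.2-fold. In 4XKO it went from 1481 ± 50.6 to 78.2 ± 7.31 and fell by 4.25 (adjusted p = 1.61e-14). In 3XKO, which keeps Tcf7l1, it went from 983 ± 43.8 to 111 ± 10.8 and fell by 3.15 (adjusted p = 4.74e-12). The loss of Socs3 on leaving ESC medium was larger by 1.46 ± 0.32 on the log2 scale in KO than in WT, with the response coded as EpiLC minus ESC and a difference of -1.46 (adjusted p = 0.00131). In 4XKO the same difference was -0.98 ± 0.32 (adjusted p = 0.0383). The 4XKO call was lost when 4XKO ESC array 1, 2 or 3, 4XKO EpiLC array 2 or 3, WT EpiLC array 1, 2 or 3, or WT ESC array 2 or 3 was left out, with values of -1.02 to -0.87 and adjusted p of 0.0539 to 0.104. In 3XKO the difference was 0.12 ± 0.32 (adjusted p = 0.940).

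Bcl3, a coregulator of NF-kappaB target genes that is also a Stat3 target in ES cells, was present in ESC and near or under the background limit everywhere else in the first set. It read 175.7, 178.4 and 150.5 in WT ESC and 9.9, 9.4 and 18.3 in WT EpiLC, where 1 of 3 arrays was above the limit. The other lines showed the same separation, with means of 146 ± 3.12 in KO ESC, 157 ± 5.41 in 3XKO ESC and 149.8 ± 21.3 in 4XKO ESC against 14.3 ± 2.80, 15.1 ± 2.36 and 11.6 ± 1.85 in their EpiLC. Bcl3 fell by 3.81 ± 0.58 on the log2 scale in WT (adjusted p = 3.76e-06), by 3.37 in KO (adjusted p = 4.69e-05), by 3.39 in 3XKO (adjusted p = 2.73e-05) and by 3.70 in 4XKO (adjusted p = 1.22e-05). All 3 of the 4XKO EpiLC arrays were below the limit, so that 4XKO ESC was at least 11-fold higher. The fall in the mutants differed from that in WT by 0.12 to 0.44 with an SE of 0.82, and none of these differences was called. At that SE, and with EpiLC near background, a moderate difference between lines could not have been seen.

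Stat3, the transcription factor of the pathway, fell less than Socs3 and Bcl3 but with every probe in every line. On the lead probe WT ESC read 551.7, 595.1 and 812.0 and WT EpiLC read 179.4, 187.0 and 202.5, with no overlap. The fall was 3.44-fold in mean intensity, or -1.76 ± 0.12 on the log2 scale (adjusted p = 1.27e-12). The other probes, ILMN_2589790 and ILMN_3096144, gave -1.89 ± 0.24 (adjusted p = 2.29e-07) and -2.42 ± 0.22 (adjusted p = 2.17e-10). In 3XKO the lead probe fell by 1.67 and in 4XKO by 1.27. In KO it fell by 0.93, from 472 ± 28.6 to 249 ± 22.4 (adjusted p = 9.72e-07), and this fall was smaller than in WT by 0.84 ± 0.17 (adjusted p = 6.65e-04). On ILMN_3096144 the fall was smaller than in WT in all 3 mutants, by 1.42 in KO (adjusted p = 9.63e-04), 1.05 in 3XKO (adjusted p = 0.0228) and 1.11 in 4XKO (adjusted p = 0.0111). The 3XKO call was lost without WT EpiLC array 1 (0.98, adjusted p = 0.0589) or 3XKO ESC array 1 (1.01, adjusted p = 0.0517), and the 4XKO call without 4XKO ESC array 2 (0.91, adjusted p = 0.0502). Probe ILMN_2589790 gave no such call, although its fall was also smaller in KO, at 1.11, than in WT. By limma its KO and 4XKO differences from WT had an unadjusted p under 0.05, as did the 4XKO difference of the lead probe. All 3 Stat3 probes were thus called lower in every line, but not the same differences between lines were called on each.

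The receptor chains behaved differently from the targets. Il6st, which encodes gp130, read 76.3, 39.3 and 65.8 in WT ESC and 29.1, 30.1 and 31.2 in WT EpiLC, and it fell by 0.95 ± 0.20 on the log2 scale (adjusted p = 3.51e-04). With the spread taken from these 6 arrays only, the adjusted p was 0.0768. In KO it rose, from 65.3, 57.2 and 62.2 in ESC to 87.7, 112.4 and 96.1 in EpiLC, a difference of 0.68 ± 0.20 (adjusted p = 0.0143). Without KO ESC array 2 the rise was 0.62 (adjusted p = 0.0576), and without KO EpiLC array 2 it was 0.58 (adjusted p = 0.0805). In 4XKO the means were 75.8 ± 8.07 and 96.6 ± 18.1 (0.34 ± 0.20, adjusted p = 0.302) and in 3XKO 75.0 ± 3.16 and 54.9 ± 0.67 (-0.45 ± 0.20, adjusted p = 0.105). The test of the difference between lines gave 1.63 ± 0.28 for KO minus WT (adjusted p = 8.15e-05) and 1.29 ± 0.28 for 4XKO minus WT (adjusted p = 0.00153). For 3XKO minus WT it gave 0.50 ± 0.28 (adjusted p = 0.339).

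Lifr, the LIF-specific receptor chain, showed a like pattern at lower signal. It read 31.7, 45.1 and 35.9 in WT ESC and 20.2, 14 and 20.1 in WT EpiLC, and fell by 1.06 ± 0.22 (adjusted p = 2.95e-04). It also fell in 3XKO, by 0.73 ± 0.22 (adjusted p = 0.0118), a call lost without 3XKO EpiLC array 2 (-0.67, adjusted p = 0.0503) or 3XKO ESC array 1 (-0.60, adjusted p = 0.0753). In KO the means were 26.3 ± 7.88 in ESC and 32.6 ± 5.87 in EpiLC (0.34 ± 0.22, adjusted p = 0.348), and in 4XKO 42.0 ± 1.95 and 38.7 ± 8.66 (-0.14 ± 0.22, adjusted p = 0.839). The response in KO exceeded that in WT by 1.40 ± 0.31 (adjusted p = 0.00139). For 4XKO this difference was 0.92 ± 0.31 (adjusted p = 0.0458), and it lost its call without 4XKO ESC array 1, 2 or 3, 4XKO EpiLC array 1, WT EpiLC array 2, or WT ESC array 2 or 3, at values of 0.75 to 0.96 and adjusted p of 0.0578 to 0.149. The second Lifr probe, ILMN_1242960, also fell in WT by 1.28 (adjusted p = 0.0195), but it was below the limit on all 3 WT EpiLC arrays and its change shrank to -0.05 with values floored at that limit. That call was lost too without WT ESC array 2 (-1.17, adjusted p = 0.0730), WT ESC array 3 (-1.19, adjusted p = 0.0668) or WT EpiLC array 2 (-0.88, adjusted p = 0.166).

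Counted over the 12 probes, 0 rose and 8 fell between ESC and EpiLC in WT, where 30% of all probes were called in either direction. In KO 1 rose and 5 fell (20.4% of all probes called), in 3XKO 0 rose and 6 fell (27.8%), and in 4XKO 0 rose and 5 fell (20.9%). The called probes belonged to 5 genes in WT, 4 in KO, 4 in 3XKO and 3 in 4XKO. The median change of the 12 probes was -1.47 in WT, -0.05 in KO, -0.83 in 3XKO and -0.15 in 4XKO, beside 0 for all probes in each line. These medians include probes near background, whose change can depend on the floor of 1. The difference between the mutant and the WT response was called for 5 of the 12 probes in KO (16.5% of all probes), 1 in 3XKO (10.6%) and 4 in 4XKO (14.4%). These comparisons all use the same 6 WT arrays.

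**Figure D2:**
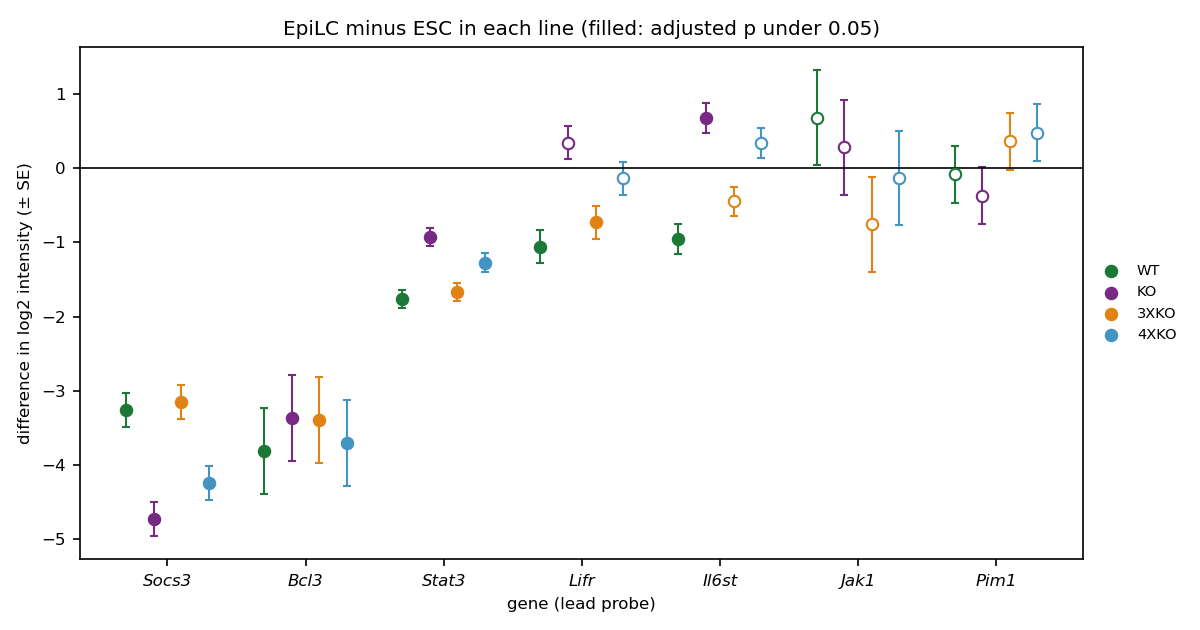
Difference in log2 intensity between EpiLC and ESC (vertical axis, ± SE) of the lead probe of each gene in the 4 lines. Filled points have an adjusted p under 0.05. Socs3, Bcl3 and Stat3 are below 0 in every line, while Il6st is -0.95 in WT and 0.68 in KO.

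Inside ESC medium, where LIF was present, few of these probes were called between lines, at shares no higher than among all probes. For KO against WT, 1 of 12 probes was called while 9.39% of all probes were. This was the lead Stat3 probe, at 504.9, 458.1 and 453.1 in KO ESC, lower than WT by 0.45 ± 0.12 on the log2 scale (adjusted p = 0.0166). The call was lost without WT ESC array 3, the highest (-0.28, adjusted p = 0.185), without KO ESC array 2 (-0.43, adjusted p = 0.0591) or without KO ESC array 3 (-0.42, adjusted p = 0.0689). With the spread of the 2 groups only its adjusted p was 0.283. For 3XKO and 4XKO against WT, 0 of 12 probes were called by limma and 0 had an unadjusted p under 0.05, beside 14.2% and 5.65% of all probes called. Socs3 differed from WT ESC by 0.20 in KO, -0.35 in 3XKO and 0.25 in 4XKO, each with an SE of 0.23. For Socs3 all 3 of the 3XKO arrays lay below all 3 WT arrays (adjusted p = 0.405), and the 4XKO arrays all lay above them. The KO arrays lay wholly below WT for Lifr, at 30.9, 30.8 and 17.2 (-0.55 ± 0.22, adjusted p = 0.137). They did so too for Bcl3 and for all 3 Stat3 probes, as did the 3XKO arrays for Stat3 probe ILMN_3096144. The share of all probes that separated in this way is not given here. Except for the lead Stat3 probe in KO, these differences did not pass the test, which does not show that the lines were alike.

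In EpiLC medium, without LIF, the lines lacking Tcf7l1 had more receptor signal and less Socs3 than WT, and Il6st was higher in 3XKO too. Il6st read 87.7, 112.4 and 96.1 in KO EpiLC and 103.9, 75.9 and 109.9 in 4XKO EpiLC, all above the 29.1 to 31.2 of WT EpiLC. It was 3.28-fold higher in KO (1.71 ± 0.20, adjusted p = 1.05e-07) and 3.20-fold higher in 4XKO (1.66 ± 0.20, adjusted p = 1.84e-07). In 3XKO it read 54.7, 55.6 and 54.3 and was 1.82-fold higher than in WT (0.87 ± 0.20, adjusted p = 0.00197). Lifr was 1.80-fold higher in KO (0.85 ± 0.22, adjusted p = 0.00426) and 2.14-fold higher in 4XKO (1.10 ± 0.22, adjusted p = 3.65e-04), and in 3XKO it differed by 0.49 ± 0.22 (adjusted p = 0.142). With the spread of the compared arrays only, the Lifr calls were lost in KO (adjusted p = 0.0738) and 4XKO (adjusted p = 0.0509). Lifr probe ILMN_1242960 was also called higher in KO (adjusted p = 0.00853) and in 4XKO (adjusted p = 0.0123), but against a WT group wholly below the limit. With values floored at the limit the differences were 0.19 (adjusted p = 0.747) and 0.12 (adjusted p = 1). Both calls were also lost without WT EpiLC array 2 (adjusted p = 0.0902 and 0.117), and the 4XKO call without 4XKO EpiLC array 3 (adjusted p = 0.0565).

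Socs3 moved against its receptor genes in the same samples. It read 64.5, 47.4 and 52.7 in KO EpiLC and 86.4, 76.0 and 72.3 in 4XKO EpiLC, all below the 123.9 to 135.1 of WT EpiLC. In KO it was lower than in WT by 1.26 ± 0.23 on the log2 scale, or 2.37-fold (adjusted p = 8.89e-05). In 4XKO it was lower by 0.74 ± 0.23 (adjusted p = 0.0195), a call lost without 4XKO EpiLC array 2 or 3 or WT EpiLC array 2 or 3, at values of -0.73 to -0.68 and adjusted p of 0.0511 to 0.0722. In 3XKO it differed by -0.23 ± 0.23 (adjusted p = 0.633). Stat3 was slightly higher than in WT EpiLC, by 0.39 ± 0.12 in KO (adjusted p = 0.0204) and 0.45 ± 0.12 in 4XKO (adjusted p = 0.00826). The KO call of Stat3 was lost without WT EpiLC array 1 (0.35, adjusted p = 0.0819), WT EpiLC array 2 (0.38, adjusted p = 0.0563) or KO EpiLC array 1 (0.32, adjusted p = 0.108). On probe ILMN_3096144 Stat3 was higher by 1.02 in KO, 0.89 in 3XKO and 1.04 in 4XKO, with adjusted p of 5.89e-04, 0.00278 and 5.46e-04.

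Against WT EpiLC, 5 of the 12 probes were called higher and 1 lower in KO (21.8% of all probes called), 2 higher and 0 lower in 3XKO (18.8%), and 5 higher and 1 lower in 4XKO (20%). The median difference of the 12 probes was 0.61, 0.41 and 0.47 in these lines, beside 0 for all probes. These comparisons share the 3 WT EpiLC arrays. KO and 4XKO EpiLC also differed from WT EpiLC in naive and formative marker signal, as given above for KO and with naive sums of 13458 to 13841 in 4XKO, and their fibroblast sums were 50.2 to 66.4 and 44 to 68.1, and the part of these shifts in the differences was not tested. Expressed probes on the members' chromosomes had a median difference from WT of between -0.08 and 0.07 on the log2 scale in every mutant group. A change confined to the site of a member gene would not show in such a median and was not tested.

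After 24 hours of CHIR99021 the lines lacking Tcf7l1 again had less Socs3 and more Il6st and Lifr than WT, whereas no Stat3 probe was called. Il6st was higher in 3XKO too. Socs3 read 45.3, 31.3 and 35.0 in KO EpiLC+CH and 52.9, 60.3 and 48.2 in 4XKO EpiLC+CH against 162.6, 155.9 and 140.7 in WT EpiLC+CH. It was lower by 2.06 ± 0.23 in KO (adjusted p = 4.65e-08), which is 4.11-fold, and by 1.51 ± 0.23 in 4XKO (adjusted p = 8.76e-06), which is 2.85-fold. In 3XKO EpiLC+CH it differed by -0.36 ± 0.23 (adjusted p = 0.358). Il6st was higher than in WT EpiLC+CH by 1.17 in KO (adjusted p = 4.86e-05), 0.87 in 3XKO (adjusted p = 0.00193) and 1.32 in 4XKO (adjusted p = 9.93e-06), each with an SE of 0.20. Lifr was higher by 0.85 ± 0.22 in 4XKO (adjusted p = 0.00519) and by 0.65 ± 0.22 in KO (adjusted p = 0.0337). The KO call of Lifr was lost without WT EpiLC+CH array 2 (0.59, adjusted p = 0.115) or 3 (0.51, adjusted p = 0.168), or without KO EpiLC+CH array 1 (0.55, adjusted p = 0.129) or 3 (0.64, adjusted p = 0.0836). With the spread of the compared arrays only, the calls of Il6st in 3XKO (adjusted p = 0.114) and of Lifr in KO (adjusted p = 0.167) and 4XKO (adjusted p = 0.0722) were lost. Probe ILMN_2829015 of Lifr was also called higher in all 3 mutants, against a WT EpiLC+CH group wholly below the limit. Its KO call was lost without any 1 of the 3 KO EpiLC+CH arrays or WT EpiLC+CH array 1 or 3 (1.51 to 2.18, adjusted p of 0.059 to 0.201), and its 3XKO call without 3XKO EpiLC+CH array 2 or WT EpiLC+CH array 1 or 3 (1.88 to 2.12, adjusted p of 0.0726 to 0.106). With values floored at the limit its 3XKO difference was 0.13 (adjusted p = 0.928). With the spread of the compared arrays only, its calls were lost in KO (adjusted p = 0.330), 3XKO (adjusted p = 0.328) and 4XKO (adjusted p = 0.134). The lead Stat3 probe differed from WT EpiLC+CH by -0.07 in KO and 0.03 in 4XKO, each with an SE of 0.12, and ILMN_3096144 by 0.19 and 0.14, each with an SE of 0.22. In all, 3 probes were higher and 1 lower in KO (21.1% of all probes called), 2 higher and 0 lower in 3XKO (17.6%) and 3 higher and 1 lower in 4XKO (20.6%).

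The question whether Gsk3 inhibition moves these genes in medium without LIF was addressed by EpiLC+CH against EpiLC. In WT, 1 of 12 probes was called, beside 6.51% of all probes. This was probe ILMN_3096144 of Stat3, at 23.0 ± 3.31 before and 38.3 ± 0.85 after CHIR99021 (0.74 ± 0.22, adjusted p = 0.0327). Leaving out any 1 of the 3 WT EpiLC+CH arrays or WT EpiLC array 1 or 2 ended this call, at values of 0.67 to 0.76 and adjusted p of 0.0747 to 0.133. The lead Stat3 probe differed by 0.35 ± 0.12 (adjusted p = 0.104). Socs3 differed by 0.23 ± 0.23 (adjusted p = 0.746) and Il6st by 0.51 ± 0.20 (adjusted p = 0.159). The 3 treated arrays of Il6st, at 35.2, 40.9 and 54.9, all lay above the untreated ones. The same held for Socs3, the lead Stat3 probe and ILMN_3096144, while the treated arrays of Jak1, near background, all lay below. How many of all probes separated in this way is not given here. In KO, 3XKO and 4XKO limma called 0 of 12 probes, beside 0.934%, 5.85% and 2.16% of all probes, and 1 probe in each line had an unadjusted p under 0.05. This was Socs3 in KO and 4XKO, at -0.57 ± 0.23 and -0.54 ± 0.23, and Il6st in 3XKO, at 0.52 ± 0.20. In each of these the treated arrays did not overlap with the untreated ones. Nor did they for the dim Lifr probe ILMN_2829015, lower in KO and higher in 4XKO. The difference between the mutant and the WT response to CHIR99021 was called for 0 of 12 probes in each line, beside 2.04% of all probes for KO, 0.693% for 3XKO and 4.34% for 4XKO. At an unadjusted p under 0.05 there were 3, 2 and 3 such probes, all of them Socs3 or Stat3. Without 4XKO EpiLC+CH array 1 the 3 lines together had 1 called probe, and without ContinuedCH array 1 they had 2.

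Keeping WT cells in Fgf2 together with CHIR99021 gave the lowest Socs3 of all groups. It read 7.6, 24.2 and 18.2 in ContinuedCH, with 1 of the 3 arrays under the limit. Socs3 fell by 3.12 ± 0.23 against WT EpiLC (adjusted p = 9.80e-12) and by 3.35 ± 0.23 against WT EpiLC+CH (adjusted p = 4.53e-12). Against WT ESC it fell by 6.38 ± 0.23 (adjusted p = 2.49e-18), a 75.5-fold difference in mean intensity. Beside 130.2 ± 5.72 in WT EpiLC, Socs3 thus read 153 ± 11.2 after 24 hours of CHIR99021 and 16.7 ± 8.41 in ContinuedCH. Of these only the second differed from EpiLC by the test.

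In the same ContinuedCH samples the receptor chains were high. Il6st read 70.2, 94.4 and 104.5, above WT EpiLC by 1.55 ± 0.20 (adjusted p = 6.02e-07) and above WT EpiLC+CH by 1.04 ± 0.20 (adjusted p = 2.84e-04). It also exceeded WT ESC by 0.60 ± 0.20 (adjusted p = 0.0286), a call that rested on single arrays. Without WT ESC array 2 the difference was 0.32 (adjusted p = 0.312), without ContinuedCH array 2 it was 0.56 (adjusted p = 0.0881) and without ContinuedCH array 3 it was 0.48 (adjusted p = 0.150). Lifr read 38.0, 29.9 and 42.1, above WT EpiLC by 1.02 ± 0.22 (adjusted p = 7.82e-04) and above WT EpiLC+CH by 0.82 ± 0.22 (adjusted p = 0.00831). The second of these was lost without WT EpiLC+CH array 3 (0.67, adjusted p = 0.0629) or ContinuedCH array 3 (0.71, adjusted p = 0.0532). Against WT ESC, Lifr differed by -0.03 ± 0.22 (adjusted p = 1). With the spread of the compared arrays only, the calls against EpiLC+CH (adjusted p = 0.0770 for Il6st and 0.138 for Lifr), the Lifr call against EpiLC (adjusted p = 0.0501) and the Il6st call against ESC (adjusted p = 0.352) were lost.

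Stat3 in ContinuedCH, at 240.9, 265.9 and 279.6, was above WT EpiLC by 0.47 ± 0.12 (adjusted p = 0.00592) and differed from WT ESC by -1.3 ± 0.12 (adjusted p = 2e-09). Probe ILMN_3096144 of Stat3 was also higher than in WT EpiLC (0.77, adjusted p = 0.0098), a call lost without ContinuedCH array 2 (0.64, adjusted p = 0.068). Bcl3 read 16.1, 9.0 and -0.4 and fell by 5.0 against WT ESC (adjusted p = 8.10e-08, and 0.0588 with the spread of these 6 arrays only), a size that depends on the floor of 1 put under the negative value. Its mean of 8.23 ± 8.28 lay under the background limit. Of the 12 probes, 5 were higher and 1 lower than in WT EpiLC (19.2% of all probes called), 3 higher and 1 lower than in WT EpiLC+CH (16.8%), and 1 higher and 5 lower than in WT ESC (22%). The higher probes included Lifr probe ILMN_1242960 against EpiLC and Lifr probe ILMN_2829015 against EpiLC+CH, each against a WT group wholly below the limit. With values floored at the limit these differences were 0.19 and 0.02, and neither was called. The naive markers summed to between 14027 and 14137 in ContinuedCH, near the sums in KO EpiLC, and the part of that shift in these differences was not tested.

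**Figure D3:**
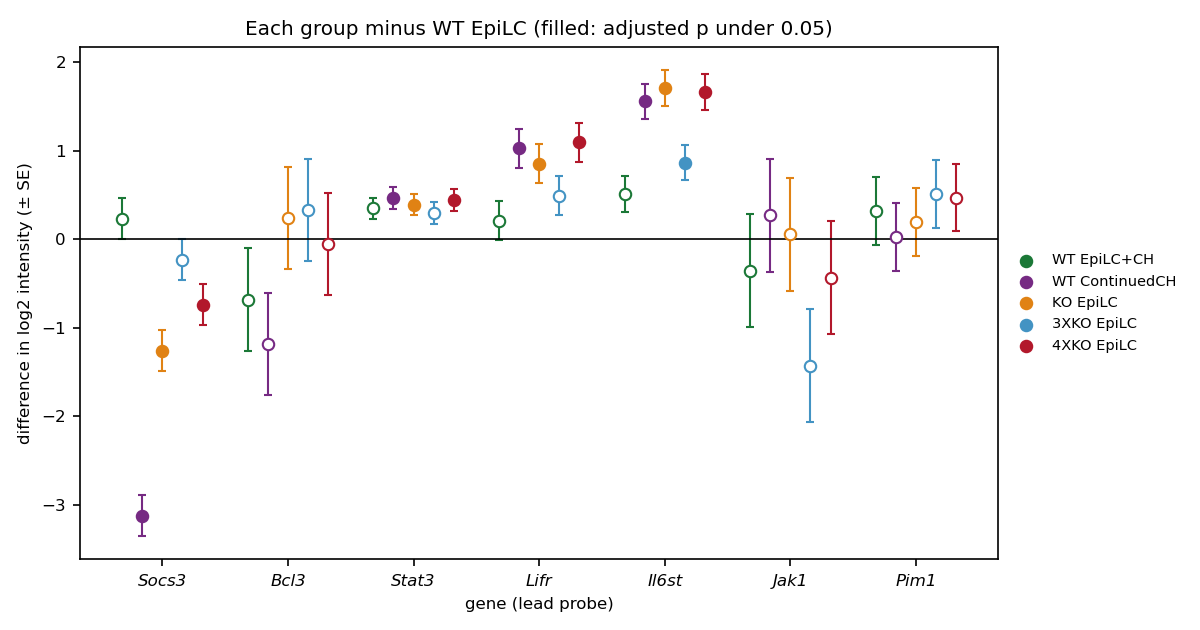
Difference in log2 intensity from WT EpiLC (vertical axis, ± SE) of the lead probe of each gene in 5 groups without LIF. Filled points have an adjusted p under 0.05. Il6st and Lifr are above 0 and Socs3 below 0 in ContinuedCH, KO EpiLC and 4XKO EpiLC, with Socs3 lowest, at -3.12, in ContinuedCH. Il6st in 3XKO EpiLC is also above 0, with a filled point.

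Ordered by mean level over the 13 groups, Socs3 stood at 1481 in 4XKO ESC, 1439.5 in KO ESC, 1258 in WT ESC and 983 in 3XKO ESC. KO ESC overlapped with both of its neighbours, but 4XKO ESC, at 1434.2 or more, lay above WT ESC, at 1426.5 or less. Below a gap under 3XKO ESC came WT EpiLC+CH at 153, WT EpiLC at 130.2, 3XKO EpiLC+CH at 119 and 3XKO EpiLC at 111. The last 3 overlapped from 1 to the next. The groups without Tcf7l1 followed at 78.2, 54.9, 53.8 and 37.2, in the order 4XKO EpiLC, KO EpiLC, 4XKO EpiLC+CH and KO EpiLC+CH, and ContinuedCH came last at 16.7. For Il6st the order was another one. It ran from 107 in 4XKO EpiLC+CH through 98.7 in KO EpiLC, 98.2 in KO EpiLC+CH, 96.6 in 4XKO EpiLC and 89.7 in ContinuedCH, all overlapping, down to 43.7 in WT EpiLC+CH and 30.1 in WT EpiLC. Only the step to KO ESC at 61.6 and the last step to WT EpiLC left no overlap between neighbours. For the lead Stat3 probe the 4 ESC groups held the top, from 737 in 3XKO ESC to 472 in KO ESC, and the 9 groups without LIF, between 262 and 189.6, overlapped from 1 neighbour to the next.

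As a description of these patterns, the 13 group means of Socs3 and Bcl3 correlated at r = 0.94, those of Bcl3 and Stat3 at 0.94 and those of Socs3 and Stat3 at 0.84. Those of Lifr and Il6st correlated at 0.78, while Il6st and Socs3 gave -0.32. Among 4521 varying probes above background, the group means of Socs3 were most like those of the chloride channel family gene Clic1 (r = 0.95), the Socs family gene Cish (0.94) and Bcl9l (0.94). Those of Bcl3 were most like Prr13 (0.98), the integrin gene Itgb4 (0.97) and Inka1 (0.97), and those of Stat3 like Gpr146 (0.98), Btg1 (0.97) and Cmtm3 (0.97). For Lifr they were Pgap6 (0.98), the galectin gene Lgals3 (0.97) and Cnnm2 (0.95), and for Il6st they were Cabs1 (0.98), the lysosomal mannosidase gene Manba (0.98) and Pip5k1b (0.95). Jak1 was most like Nadsyn1 (0.93), Dipk1b (0.93) and Ano9 (0.90), and Pim1 like Nme2 (0.78), Gpam (0.71) and Socs1 (0.68), both from signals near background. The 13 points share 4 lines and the same arrays, and 4 of them are the ESC groups that set most of the spread for Socs3, Bcl3 and Stat3.

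In the second set 7 of the 8 arrays belong to groups with LIF in their name, here called the LIF arrays, although it is not settled whether LIF stayed in the medium of the 3 LIF+PD+24hrCH arrays. The other array, PD+CHIR, held PD0325901 and CHIR99021 without LIF. Because LIF+PD lacked CHIR99021 and LIF+CHIR lacked PD0325901, no LIF array is known to differ from the PD+CHIR array by LIF alone. The parts of LIF and of the inhibitors in these differences cannot be told apart. On the PD+CHIR array Socs3 read 32.6, whereas the 7 LIF arrays ran from 1365.5 to 2180.8 around a median of 1523.7. That is 46.7-fold under the median and 41.9-fold under the lowest. Bcl3 read 17.6 against 174.1 to 209.8, which is 11.4-fold under the median of 200.5. Without the LIF+PD+24hrCH arrays the lowest LIF array read 1422.8 for Socs3 and 174.1 for Bcl3. The lead Stat3 probe read 181.2 against 341.3 to 485.5, below every LIF array but 1.88-fold under the lowest, and probe ILMN_3096144 of Stat3 read 6.7, below the limit, against 26.8 to 40.2. The receptor chains did not separate, since Il6st at 167.8 lay inside 101.7 to 177.8 and Lifr at 42.7 inside 19.5 to 61.9.

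With 1 PD+CHIR array there is no replicate and no test. Counting as lower a value 2-fold or more under the lowest LIF array, 5 of the 12 probes were lower and 0 higher, beside 1.82% of all probes lower and 2.42% higher. These 5 were Socs3, Bcl3, ILMN_3096144 of Stat3, Jak1 at 0.5 and the second Pim1 probe at 2.7. For Jak1 the LIF arrays read 7.0 to 14.3 and for that Pim1 probe 11.3 to 19.3, at or near the limit of 14.3, and with values floored at the limit 2 of the 5 were left. The lead Pim1 probe went the other way, at 34.1 against 12.2 to 24.9. The naive markers on this array summed to 16223, against 16259 to 18050 on the 7 LIF arrays. Thy1 read 616.5, above 407.9, the highest LIF array.

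**Figure D4:**
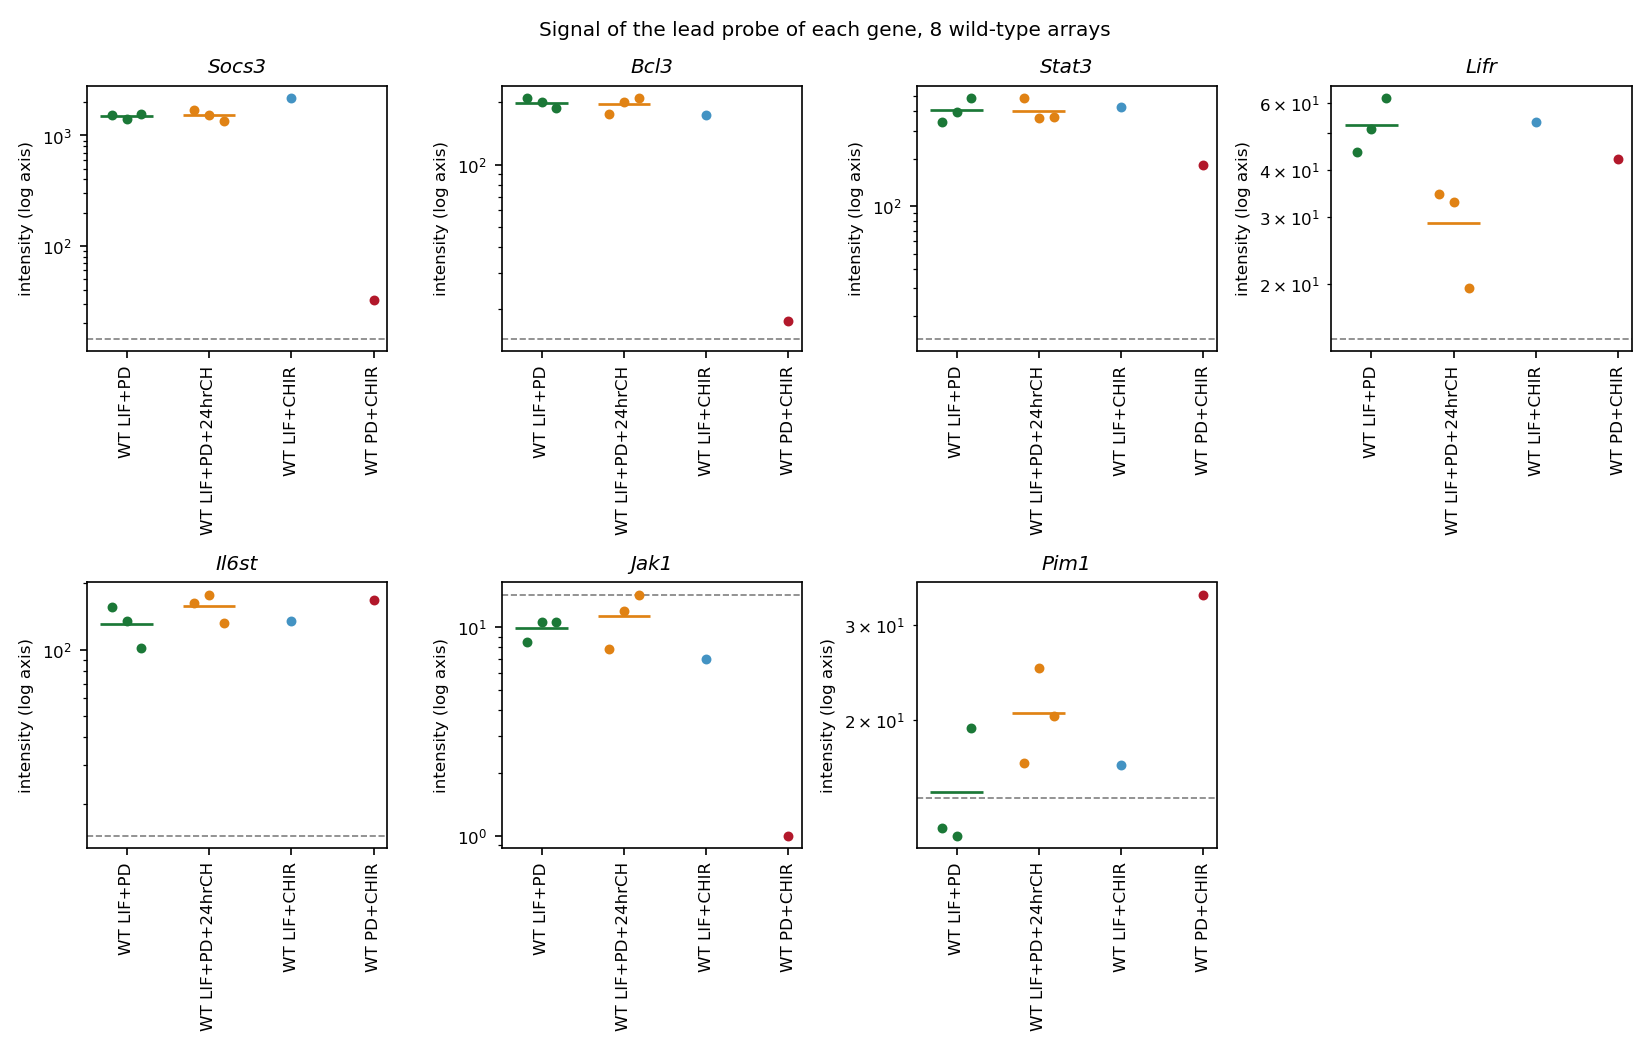
Deposited intensity (log axis) of the lead probe of each gene on the 8 WT arrays of the second set. Each point is 1 array, the value under 1 is drawn at 1, short lines are means of 3 arrays and the dashed line is the background limit of 14.3. Socs3 and Bcl3 on the PD+CHIR array, at 32.6 and 17.6, lie far under all 7 arrays whose group names include LIF.

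Between LIF+PD+24hrCH and LIF+PD, which differ by CHIR99021 and possibly by whether LIF and PD0325901 stayed, none of these probes was called by limma. Socs3 read 1522.4, 1422.8 and 1577.1 in LIF+PD and 1690.4, 1523.7 and 1365.5 in LIF+PD+24hrCH, a difference of 0.01 ± 0.10 (adjusted p = 1). Bcl3 differed by -0.03 ± 0.09 and Stat3 by -0.02 ± 0.19. Lifr had the largest difference, from 44.5, 51.3 and 61.9 to 34.6, 32.9 and 19.5 without overlap, at -0.89 ± 0.28 (adjusted p = 0.466). By limma 0 of 12 probes were called, and Lifr alone had an unadjusted p under 0.05, beside 0.342% of all probes called.

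Other genes of the pathway were described from lists of 7 LIF family ligands, 4 further receptor chains, 9 further Jak and Stat genes, 17 adaptors and inhibitors and 18 further targets in ES cells. Of these, 7, 3, 8, 17 and 15 had a probe and 2, 2, 7, 16 and 15 had a lead probe whose mean was above background in some group. From WT ESC to WT EpiLC the ligands counted 0 higher and 1 lower, the receptor chains 0 and 1, the Jak and Stat genes 1 and 3 and the adaptors and inhibitors 2 and 8, while 30% of all probes were called in either direction. The ligand was Osm, which encodes oncostatin M, at 63.2 ± 16.7 in WT ESC and under the limit in WT EpiLC, so at least 4.65-fold lower. The receptor chain was the interleukin 6 receptor gene Il6ra, at 21.9 ± 5.42 in WT ESC and under the limit in WT EpiLC. Jak3 fell by 2.87 ± 0.23 and Tyk2 by 0.87 ± 0.09, 2 further Jak kinase genes. Among the inhibitors Pias2 fell by 1.68 and Socs5 by 1.60, and Cish, the Socs family gene most like Socs3 by that measure, fell by 0.86 ± 0.24 (adjusted p = 0.00511).

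Of the 15 targets, 8 were higher and 5 lower in WT EpiLC than in WT ESC, beside 30% of all probes called in either direction, and their median was 0.29 beside 0. Klf4 and Klf5, which encode naive pluripotency factors, fell by 4.60 ± 0.23 and 3.08 ± 0.09 on the log2 scale, and the adhesion gene Icam1 fell by 1.01 ± 0.07. Gadd45g, a growth-arrest and stress gene, rose by 7.17 ± 0.14, from 19.3 ± 6.05 to 2686 ± 266. The Pim kinase gene Pim2 rose at least 10.7-fold from a level under the limit in WT ESC to 145 ± 67.7. Myc was also called higher (3.10), from means of 1.57 and 12.7, both under the limit.

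In KO EpiLC against WT EpiLC 2 of the 15 targets were higher and 10 lower (21.8% of all probes called), with a median of -1.61 beside 0 for all probes. Cebpb, which encodes a bZIP transcription factor, fell by 3.53 ± 0.22, Gadd45g by 3.13 ± 0.14 and Pim2 by 3.05 ± 0.59, while Klf4 was higher by 2.56 ± 0.23 and Klf5 by 1.03 ± 0.09. In 4XKO EpiLC 3 were higher and 9 lower (20% of all probes, median -0.85), and in 3XKO EpiLC 6 were higher and 4 lower (18.8% of all probes, median -0.0036). ContinuedCH against WT EpiLC gave 2 higher and 11 lower (19.2% of all probes, median -1.32), again with Klf4 (2.80) and Klf5 (1.62) higher and Pim2 (-3.47), Gadd45g (-2.57) and the mRNA decay factor gene Zfp36 (-2.45) lower. Cish was lower than in WT EpiLC in KO (-1.06, adjusted p = 0.00105), 3XKO (-0.81, adjusted p = 0.0141), 4XKO (-0.70, adjusted p = 0.0336) and ContinuedCH (-1.59, adjusted p = 6.06e-06).

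Osm was the only ligand called higher in KO EpiLC, 4XKO EpiLC and ContinuedCH. It was below the limit in WT EpiLC and read 43.1 ± 0.81 in WT EpiLC+CH, 62.8 ± 10.4 in KO EpiLC, 44.1 ± 1.35 in 4XKO EpiLC and 190.3 ± 21.6 in ContinuedCH. It was therefore at least 3.17-fold, 4.62-fold, 3.24-fold and 14-fold higher than in WT EpiLC, in that order, and called in each (largest adjusted p = 6.79e-10). It was also called higher in 3XKO EpiLC (1.08, adjusted p = 0.00102), with a mean under the limit. Oncostatin M signals through gp130, the product of Il6st, but neither protein nor receptor activity was measured here. The mean of Lif itself was under the limit in every group. Among the inhibitors Socs5 was higher in KO (1.44), 3XKO (1.13) and 4XKO EpiLC (1.74) and in ContinuedCH (1.89). Among the kinases Tyk2 was higher by 0.61 in KO EpiLC, 0.76 in 4XKO EpiLC and 0.60 in ContinuedCH, each with an SE of 0.09.

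On the PD+CHIR array 3 of the 15 targets were 2-fold or more under the lowest LIF array, as was 1 of the 17 adaptors and inhibitors. Of all probes, 1.82% were lower by this rule and 2.42% higher, with no replicate of this array. Klf4 read 106.7 against 268.6 to 449.5, Junb, which encodes an AP-1 factor, 20.0 against 66.0 to 104.0, Icam1 318.6 against 709.0 to 1496.0 and Cish 66.5 against 154.6 to 426.0. Osm, at 718.5, lay inside its LIF range of 404.1 to 795.8. No receptor chain and no Jak or Stat gene of the lists passed the 2-fold limit. The ligand gene Il6 and the target Myc passed it upwards, at 3.6 and 12 on the PD+CHIR array, both under the background limit.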

How the data were processed

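Gene expression was measured on 47 arrays of 25697 probes. The deposited values are intensities on a linear scale. The submitters' processing notes name lumi and limma with no version or role. The values show a subtracted background (negative values) and quantile normalization by the authors in 2 separate sets of 39 and 8 arrays.

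From the deposited intensities, values under 1 (31.2% to 32.1% of an array) were set to 1, log2 was taken and arrays were quantile-normalized again within each set. For each set, limma 3.58.1 (R 4.3.3; lmFit and eBayes) estimated the mean of every group and the contrasts between them. The p-values were adjusted by Benjamini-Hochberg over all 25697 probes, and an adjusted p under 0.05 was a call. The code was tested on data with known changes. The background limit is the size of the lowest value of a set. A fold is a ratio of mean intensities, or the brighter mean over the limit ("at least") where all arrays of the other group were below it. With 2 or more probes the one with the highest mean log2 leads. Gene lists were described by counts and medians, with up to 3 named genes per direction by size of the called change and, for likeness, 3 genes with the highest Pearson r over 13 group means, among probes with an SD of 0.5 or more. Values of Cish, Osm, Tyk2, Socs5, Klf4 and Il6 beyond that rule, and the genes named on the single array, were chosen after their values were seen. The members, lists and tests were chosen with earlier results of these data known. The comparison of all ESC with all LIF-free arrays and the check of chromosomes were added later. Of the probes, 23978 carried 1 symbol and 1719 none. All 7 genes matched RefSeq promoters of GRCm38.p6. The number of arrays limits the precision. Alternatives are given at the end. Tables and plots used Python 3.11.15 and matplotlib 3.10.9.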

Additional observations from a re-analysis of the deposited data

Results flagged for a closer look

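The change from ESC to EpiLC differed between a mutant line and WT in 10 tests of that difference, each an interaction contrast in limma with an adjusted p under 0.05. On the log2 scale, the mutant response minus the WT response was 1.63 for Il6st in KO and 1.29 in 4XKO, 1.40 for Lifr in KO and 0.92 in 4XKO, and -1.46 for Socs3 in KO and -0.98 in 4XKO. For Stat3 it was 0.84 on the lead probe in KO, and on probe ILMN_3096144 it was 1.42 in KO, 1.05 in 3XKO and 1.11 in 4XKO. Of these 10, the value of 1.05 alone came from the line that keeps Tcf7l1. Whether the KO and 3XKO responses differed from each other was not tested.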

How the results depend on the processing

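The calls were recomputed with cyclic loess, without a second normalization, with a floor at the background limit, without the dimmest 33.3% of probes, with trended and robust eBayes, with a replicate block, with the spread from only the groups compared, with KO EpiLC arrays 2 and 3 averaged (r = 0.985; the Il6st rise in KO was then 0.64, adjusted p = 0.0528), and without each array in turn. Of 77 called values for single probes, 46 kept their call under all of these and 31 lost it under at least 1, most often the 4XKO responses of Lifr and Socs3 and the 2 dim Lifr probes. Lifr probe ILMN_2829015 in KO EpiLC+CH against WT EpiLC+CH went to 0 with the floor at the limit, since both groups then lie at the floor.

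The numbers of called member probes were 25 for EpiLC against ESC, 25 for mutants against WT, 16 for ContinuedCH, 10 for the mutant EpiLC response, 1 for 24 hours of CHIR99021, 0 for the mutant response to it and 0 for CHIR99021 added to LIF+PD. The spread from only those groups gave 15 for mutants against WT, 8 for ContinuedCH, 0 for 24 hours of CHIR99021 and 1 for the mutant response to it. A floor at the limit gave 2, 2 and 2 for 24 hours of CHIR99021, the mutant response to it and the PD+CHIR array, against 1, 0 and 5. Without 1 array at a time the counts ran from 24 to 26, 22 to 26, 13 to 16, 7 to 12, 0 to 3, 0 to 2 and 0 to 0 in the order given first. With the replicate number as a block they were 25, 25, 15, 11, 1, 0 and 0. Deviations from the group means correlated at a median r of 0.07 between arrays of the same number and -0.04 between arrays of other numbers. Of the compared pairs of the same number, 27 of 60 correlated above 0.1, so whether these samples were paired is not settled. Depth is not defined for arrays, and probes near the limit, Jak1 and Pim1 among them, are limited by signal.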
